A study of Homo sapiens with 12 samples.

Results

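The circadian clock genes described here are PER1, PER2, PER3, CRY1, CRY2, CLOCK, BMAL1 (listed as ARNTL in the platform annotation), NR1D1, NR1D2 and DBP, 10 genes named for their place in the molecular clock, by a rule that uses no measured value. The list, and that of the wider clock genes below, was nevertheless chosen with earlier results of these data known. Every probe annotated to exactly 1 of them was taken. On the Affymetrix array (AFFX) these were 18 probe sets for 8 genes, of 54613 probe sets tested, which covered 19752 genes with a single-gene probe set. On the Applied Biosystems array (ABI) they were 10 probes for all 10 genes, of 33096 probes and 17182 genes. The AFFX probe sets of PER1 and NR1D1 carry a further gene in the annotation, so both genes have ABI values only.

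RNA came from A2780, an established human ovarian carcinoma cell line. Treated cells had received 3 µM of a cell cycle inhibitor for 6 hours and control cells had not, with both grown in the same medium with serum and only attached cells collected. The inhibitor is not named, and no target can be given for it. Cultures of each condition were pooled into 1 RNA sample before it was split into aliquots, 3 for AFFX and 3 for ABI arrays, giving 12 arrays in 4 groups. Every p-value below therefore measures the technical spread between aliquots and compares 1 treated pool with 1 control pool. In such bulk RNA, fewer cells that express a gene and less RNA per cell cannot be told apart, and a single time point shows no rhythm.

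In the mammalian clock the CLOCK and BMAL1 proteins pair on DNA at E-box sequences and switch on the PER and CRY genes. The PER and CRY proteins then gather in the nucleus and hold CLOCK and BMAL1 back, which closes a loop of about a day. A second loop runs through NR1D1 and NR1D2, nuclear receptors that repress BMAL1, and DBP, a PAR bZIP factor, carries the rhythm to genes with D-box sequences.

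Promoter windows of the 4 members called lower below, and of NR1D2, the member window with the most motif matches, are shown because these sequence elements define the wiring of the clock. Each runs from 250 bases before to 50 bases after the RefSeq gene start on build GRCh38.p14, read on the strand of the gene. Capitals mark E-boxes (CACGTG), the variant E-box (CACGTT), D-boxes (TTATGTAA, TTACGTAA, TTATGCAA or TTACGCAA) and the core of the ROR element bound by NR1D1 and NR1D2 (TAGGTCA or TGGGTCA), all searched on both strands. The windows lie at chr17:8152355-8152654 for PER1, chr2:238288561-238288860 for PER2, chr4:55545883-55546182 for the second start of CLOCK, chr19:48637330-48637629 for DBP (minus strand for these 4) and chr3:23945871-23946170 for the second start of NR1D2 (plus strand).
PER1: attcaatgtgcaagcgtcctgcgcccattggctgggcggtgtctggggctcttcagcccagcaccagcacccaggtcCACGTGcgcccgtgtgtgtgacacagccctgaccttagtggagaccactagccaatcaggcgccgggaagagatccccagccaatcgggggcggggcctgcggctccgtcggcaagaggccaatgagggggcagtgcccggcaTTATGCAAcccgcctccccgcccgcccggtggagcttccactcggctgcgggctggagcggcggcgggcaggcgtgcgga
PER2: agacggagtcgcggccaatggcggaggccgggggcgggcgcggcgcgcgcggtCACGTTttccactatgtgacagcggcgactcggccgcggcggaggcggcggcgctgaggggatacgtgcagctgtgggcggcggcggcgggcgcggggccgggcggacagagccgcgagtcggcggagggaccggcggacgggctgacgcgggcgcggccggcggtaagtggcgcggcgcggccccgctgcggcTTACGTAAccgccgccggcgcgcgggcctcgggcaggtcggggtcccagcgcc
CLOCK: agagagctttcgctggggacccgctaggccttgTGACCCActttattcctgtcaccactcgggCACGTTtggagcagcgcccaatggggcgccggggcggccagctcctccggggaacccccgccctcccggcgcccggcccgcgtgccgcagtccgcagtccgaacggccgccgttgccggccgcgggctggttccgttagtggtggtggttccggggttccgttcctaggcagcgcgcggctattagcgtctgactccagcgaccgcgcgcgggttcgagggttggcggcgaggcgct
DBP: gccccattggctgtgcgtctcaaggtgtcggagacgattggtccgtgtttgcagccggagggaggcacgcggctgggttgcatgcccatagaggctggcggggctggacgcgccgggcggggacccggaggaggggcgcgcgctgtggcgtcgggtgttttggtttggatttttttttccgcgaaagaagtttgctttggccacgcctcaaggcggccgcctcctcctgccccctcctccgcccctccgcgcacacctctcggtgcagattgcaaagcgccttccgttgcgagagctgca
NR1D2: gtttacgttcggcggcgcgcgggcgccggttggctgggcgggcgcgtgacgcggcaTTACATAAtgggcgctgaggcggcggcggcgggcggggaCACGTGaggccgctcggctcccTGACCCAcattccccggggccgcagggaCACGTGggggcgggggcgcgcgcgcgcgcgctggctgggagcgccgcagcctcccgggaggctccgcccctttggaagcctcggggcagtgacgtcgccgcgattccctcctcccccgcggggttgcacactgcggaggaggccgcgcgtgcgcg

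PER1 held an E-box starting 173 bases before the gene start and a D-box at 30 bases before it. In PER2 the variant E-box stood 197 bases before the start and a D-box began 3 bases before it. CLOCK showed the variant E-box at 187 and a ROR core at 217 bases before its second start, while the window at its first start held 0 matches, and the DBP window matched none of the motifs searched. Of the 15 windows of the 10 members, the E-box was found in 2 windows (PER1 and NR1D2) and the variant in 5 (PER2, CRY1, CRY2, CLOCK and NR1D1). The D-box was found in 4 of the 15 windows (PER1, PER2, PER3 and NR1D2) and the ROR core in 4 (CRY2, CLOCK, BMAL1 and NR1D2). Of all 34943 RefSeq windows of the same length, 7.23% held the E-box, 5.35% the variant, 2% a D-box and 5.68% a ROR core. The cyclic AMP response element TGACGTCA, through which PER1 is known to be induced, occurred in none of the member windows and in 1.84% of all windows. A match describes letters in the window and is no evidence that a factor was bound.

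Within a group the arrays correlated at 0.9939 to 0.9964 (treated) and 0.9963 to 0.9972 (control) on AFFX and at 0.9695 to 0.9708 (treated) and 0.9726 to 0.973 (control) on ABI, over all tested probes. The median replicate SD on the log2 scale was 0.113 in treated and 0.0976 in control arrays on AFFX, and 0.298 in treated and 0.261 in control arrays on ABI, so ABI changes are the less precise. Epithelial and ovarian markers ranged from the 19.6th to the 82.7th percentile of signal on AFFX and from 8.1 to 58.8 on ABI. KRT8 (64.1 on AFFX and 56 on ABI) and KRT18 (60.8 and 56.3) lay above the median probe on both platforms. PAX8 (82.7 and 38.6) did so on AFFX only and MUC16 (24.6 and 58.8) on ABI only. EPCAM (26.3 on AFFX and 41 on ABI), CDH1 (27.9 and 8.1) and WT1 (19.6 and 49.2) lay below it on both platforms. KRT19 lay below it on AFFX (36.8) and had no ABI value. Markers of leukocytes ranged from the 35.3rd to the 72.3rd percentile on AFFX and from 8.4 to 52.6 on ABI, and fibroblast and endothelial markers from 15.2 to 99.4 and from 3 to 96.4, with COL3A1 at the top on both. By limma, no marker was called on AFFX, where 8.95% of all probe sets were called lower and 1.75% higher. At an unadjusted p under 0.05, 9 of 22 AFFX markers were higher in treated cells, beside 31.6% of all probe sets. None was lower, beside 17% of all. On ABI KRT18 was called lower (log2(Fold Change) -0.87) and MUC16 higher (1.16), where 10.1% of all probes were called lower and 7.71% higher. The part of these marker values in the clock results was not tested.

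A probe was called when its treated and control arrays differed at a limma adjusted p under 0.05, over all probes of the platform, and by at least 1.5-fold. Among the clock probes, all calls were lower in treated cells. On AFFX 5 of 18 clock probe sets were called lower (27.8%), where 8.95% of all probe sets were, and 0 were called higher, where 1.75% of all were. On ABI 3 of 10 clock probes were called lower (30%), against 10.1% of all probes, and 0 higher, against 7.71% of all. At an unadjusted p under 0.05 with no fold limit, limma put 8 AFFX and 6 ABI clock probes lower (17% of all AFFX and 15.1% of all ABI probes) and 2 AFFX and 0 ABI clock probes higher (31.6% of all AFFX and 19.8% of all ABI probes). The equal-variance t-test of the methods was adjusted in the same way and used with the 1.5-fold limit. It called 5 AFFX and 3 ABI clock probes lower and 0 higher on both platforms. Shares over all probes are not given for that test.

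The called probes belonged to 4 genes, PER1, PER2, CLOCK and DBP, and the other 6 genes had no called probe on either platform. Of the 28 clock probes on both platforms, 20 had a log2(Fold Change) below 0. The median over clock probe sets on AFFX was -0.09, beside 0.12 over all probe sets, and over clock probes on ABI it was -0.72, beside 0.16 over all probes. Treated arrays lay wholly below control arrays for 7 of 18 AFFX clock probe sets (17.5% of all probe sets) and 6 of 10 ABI clock probes (17.1% of all probes). They lay wholly above for 1 AFFX clock probe set (34% of all) and 0 ABI clock probes (23.8% of all).

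**Figure D1:**
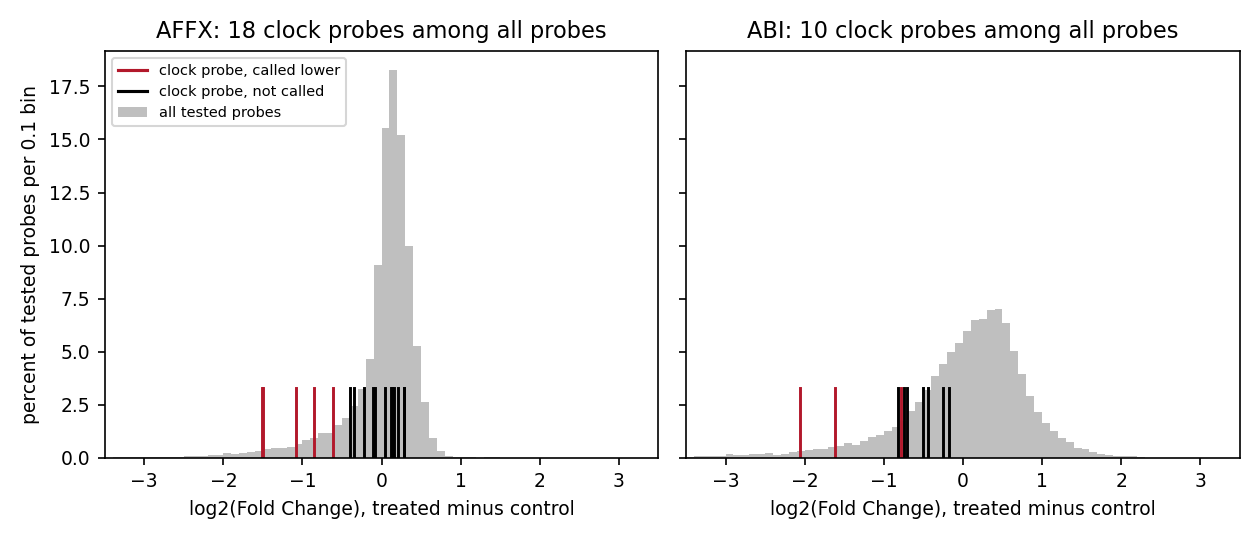
Log2(Fold Change) of treated against control cells on AFFX (left) and ABI (right), with grey bars for the percent of all tested probes in each bin of 0.1 and vertical ticks for the clock probes (red where called lower, black where not called). The clock ticks reach down to -1.52 on AFFX and -2.06 on ABI, and none lies above 0.28 on AFFX or above -0.18 on ABI.

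CLOCK, the DNA-binding activator with histone acetyltransferase activity, fell on both platforms. Probe set 227531_at read 6.98, 7.08 and 6.97 on the treated arrays and 8.63, 8.56 and 8.33 on the control arrays (AFFX log2 signal). All treated arrays lay more than a log2 unit below all control arrays, a 2.82-fold lower signal (log2(Fold Change) -1.50, SE 0.0965, limma adjusted p 6.05e-07). Probe set 225856_at gave 6.61, 6.65 and 6.22 in treated and 7.69, 7.65 and 7.39 in control cells, again with no overlap and 2.11-fold lower (-1.08, SE 0.127, adjusted p 7.32e-05).

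A further CLOCK probe set, 204980_at, gave 7.71, 7.53 and 7.36 in treated cells, against 8.21, 8.10 and 8.13 in control cells. The groups were again apart, but the change of 1.53-fold (-0.61, SE 0.0991, adjusted p 0.000761) stood just past the fold limit, and under quantile normalization (-0.40), without treated replicate 3 (-0.53) or without control replicate 1 (-0.58) it fell under the limit. The remaining probe set, 217563_at, was dimmer and not called, with 4.65, 4.62 and 4.87 in treated and 4.32, 4.40 and 4.81 in control cells (0.20, adjusted p 0.234). Its groups overlapped. Its mean lay at the 33.9th percentile of AFFX signals, and the 3 called probe sets at the 75th to 83.6th.

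On ABI the CLOCK probe 135507 read 3.23, 3.39 and 3.57 in treated cells and 4.30, 4.12 and 4.10 in control cells (log2 of the deposited intensity). Treated arrays lay below all control arrays, 1.72-fold lower (-0.78, SE 0.148, adjusted p 0.0204). The call was lost when any 1 of 5 of the 6 ABI arrays was left out (adjusted p 0.0579 to 0.0677, with treated replicate 3 the exception) and under quantile normalization (-0.53). The direction was kept in each of these fits.

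BMAL1, the partner of CLOCK, was not called. Its AFFX probe sets gave log2(Fold Change) 0.13 (209824_s_at, adjusted p 0.387) and 0.04 (210971_s_at, adjusted p 0.822). The ABI probe read -0.84, -0.43 and -1.79 in treated and 0.25, -0.62 and -0.58 in control cells (-0.70, SE 0.427, adjusted p 0.307). Treated and control arrays overlapped on all 3 probes, which lay at or below the 46th percentile of signal on either platform. On the ABI probe of BMAL1, a change of the size of the CLOCK fall on ABI was not detectable at this spread. The AFFX probe sets of BMAL1 were more precise (SE 0.116 and 0.133).

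**Figure D2:**
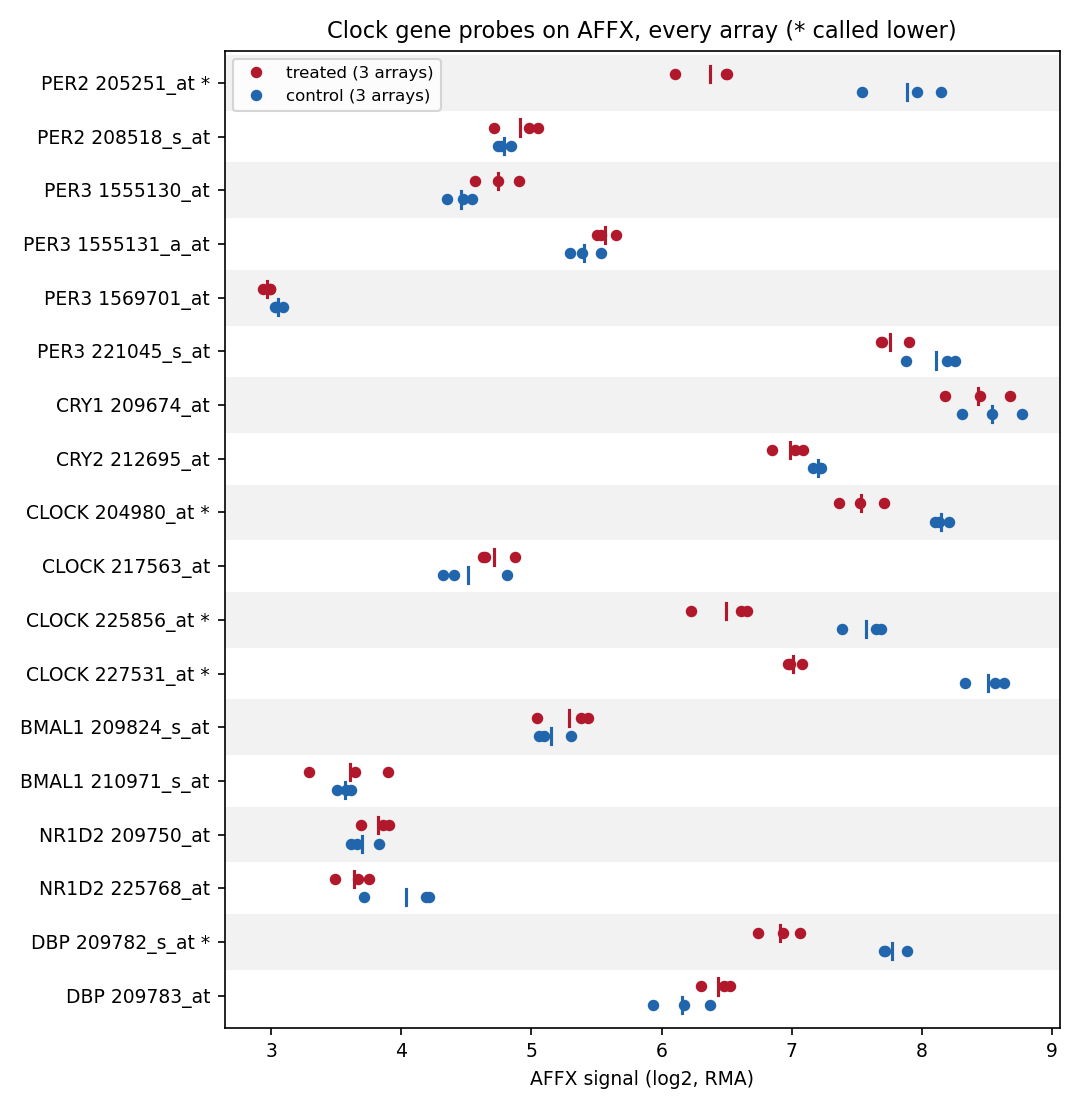
AFFX log2 signal (RMA) of the 18 clock probe sets on every array, treated (red, upper row of each pair) and control (blue, lower row), with group means as vertical bars and an asterisk for probe sets called lower. The 5 called probe sets are those of PER2 (1), CLOCK (3) and DBP (1), and in each the treated and control points do not overlap.

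The period genes encode repressors that scaffold the complex with the cryptochromes. ABI probe 107996 read 0.45, 0.43 and -0.18 in treated cells and 2.32, 2.25 and 2.3 in control cells (log2 intensity), and the lowest control array exceeded the highest treated array by more than a log2 unit. The signal was 4.16-fold lower in treated cells (-2.06, SE 0.208, adjusted p 0.00281), and the call was kept under every alternative tried and with each array left out. With 1 added to the ABI intensities before log2, which damps low signals, the fall was 2.69-fold (-1.43).

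PER2 was called lower on AFFX and not on ABI. Probe set 205251_at read 6.50, 6.51 and 6.11 in treated and 8.15, 7.96 and 7.54 in control cells, 2.86-fold lower with no overlap (-1.52, SE 0.156, adjusted p 2.45e-05). Probe set 208518_s_at gave 4.71, 4.98 and 5.05 in treated and 4.75, 4.77 and 4.84 in control cells and was not called (0.13, adjusted p 0.331). These 2 probe sets for a single gene thus read differently, the called one at the 76.1st percentile of signal and the other at the 38.8th.

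ABI probe 171944 for PER2 read -0.84, -2.47 and -1.18 in treated cells and -0.45, -1.15 and -2.12 in control cells. Arrays of each group spread over more than 1.5 log2 units and overlapped (-0.26, SE 0.593, adjusted p 0.804), at the 25.2nd percentile of ABI signal. The ABI change minus the AFFX change was 1.26 (SE 0.605), which did not pass the test of the difference (limma interaction, adjusted p 0.217).

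PER3, the least essential period gene in mouse clocks, was not called. Its AFFX probe sets ran from -0.35 (221045_s_at, adjusted p 0.0302) over -0.08 (1569701_at, 0.43) and 0.16 (1555131_a_at, 0.196) to 0.28 (1555130_at, 0.0485). The last was the only clock probe whose treated arrays (4.91, 4.57 and 4.75) all lay above the control arrays (4.35, 4.54 and 4.48), by 1.22-fold. The brightest, 221045_s_at, read 7.68, 7.90 and 7.70 in treated and 8.20, 8.26 and 7.88 in control cells, and these groups overlapped. ABI probe 194365 read 4.39, 4.46 and 4.54 in treated and 5.06, 4.82 and 5.01 in control cells, apart from each other but only 1.41-fold lower (-0.50, SE 0.129, adjusted p 0.0466).

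The cryptochromes CRY1 and CRY2, the strongest repressors of CLOCK and BMAL1, were not called on either platform. CRY1 read 8.45, 8.68 and 8.18 in treated and 8.77, 8.54 and 8.31 in control cells on AFFX, with overlap (-0.10, SE 0.141, adjusted p 0.577). On ABI it read 0.53, 1.32 and 0.73 in treated and 1.77, 1.60 and 1.66 in control cells, without overlap (-0.82, SE 0.232, adjusted p 0.06). The ABI value lay just outside the threshold.

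CRY2 on AFFX gave 6.85, 7.03 and 7.09 in treated and 7.22, 7.23 and 7.17 in control cells, without overlap but only 1.16-fold apart (-0.22, SE 0.0885, adjusted p 0.0723). On ABI it gave 1.68, 2.16 and 2.32 in treated and 2.95, 2.64 and 2.78 in control cells, also without overlap (-0.74, SE 0.208, adjusted p 0.0587). Both cryptochromes were called lower on ABI when dim probes were left out of the test (adjusted p 0.0155 for CRY1 and 0.0144 for CRY2) or when limma's prior variance followed the intensity (0.0147 for CRY1 and 0.00244 for CRY2).

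**Figure D3:**
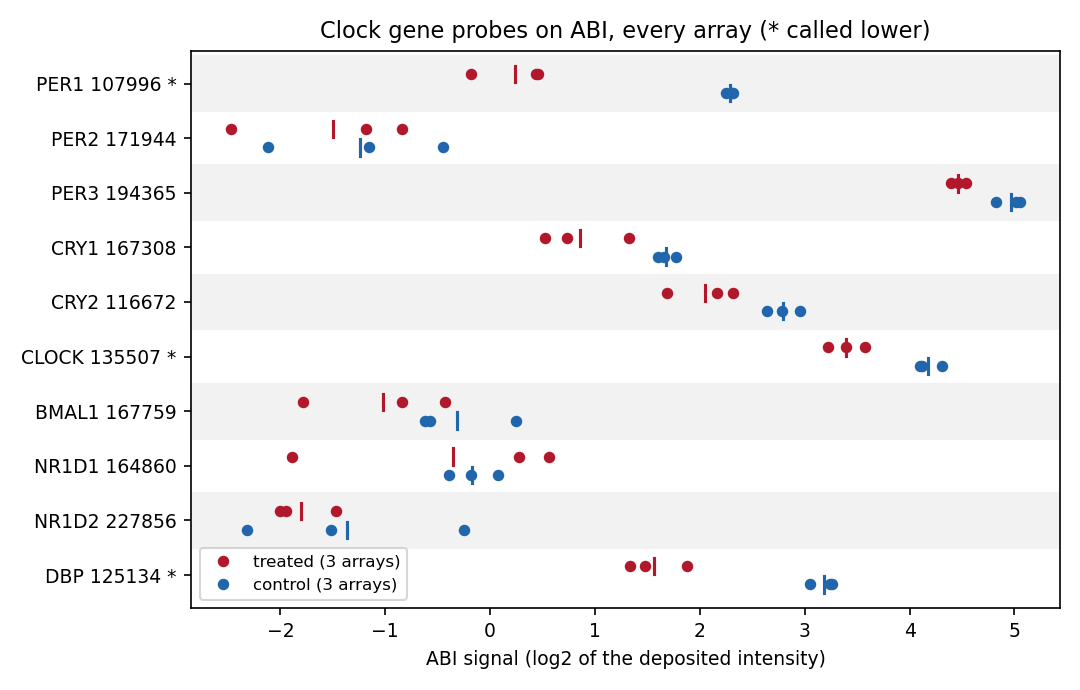
ABI signal (log2 of the deposited intensity) of the 10 clock probes on every array, treated (red, upper row of each pair) and control (blue, lower row), with group means as vertical bars and an asterisk for probes called lower. PER1, CLOCK and DBP are called lower, and PER3, CRY1 and CRY2 are also without overlap but not called.

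NR1D1 and NR1D2, which encode the REV-ERB repressors, had no call. The NR1D1 probe on ABI read 0.57, -1.89 and 0.28 in treated and -0.18, -0.40 and 0.07 in control cells. Treated replicate 2 stood far below the other arrays, and the change was -0.18 (SE 0.669, adjusted p 0.883) with it and 0.59 (adjusted p 0.147) without it.

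NR1D2 was dim on both platforms, at the 17.6th and 19.1st percentile on AFFX and the 18th on ABI. AFFX probe set 225768_at read 3.49, 3.66 and 3.75 in treated and 4.19, 4.21 and 3.72 in control cells, with overlap and a change under the fold limit (-0.40, SE 0.133, adjusted p 0.0344). Probe set 209750_at gave 0.12 (adjusted p 0.343). The ABI probe gave -2, -1.47 and -1.94 in treated and -1.51, -0.25 and -2.32 in control cells (-0.44, SE 0.536, adjusted p 0.618).

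DBP, the output factor whose promoter and introns CLOCK and BMAL1 are known to bind in mouse liver, fell on both platforms. AFFX probe set 209782_s_at read 6.93, 7.07 and 6.74 in treated cells and 7.89, 7.71 and 7.72 in control cells. All treated arrays were below all control arrays, 1.81-fold lower (-0.86, SE 0.101, adjusted p 7.45e-05). The ABI probe read 1.88, 1.48 and 1.33 in treated and 3.24, 3.05 and 3.26 in control cells, 3.07-fold lower without overlap (-1.62, SE 0.183, adjusted p 0.00407). The second AFFX probe set, 209783_at, was not called and overlapped, at 6.30, 6.48 and 6.53 in treated and 6.17, 5.93 and 6.37 in control cells (0.28, adjusted p 0.079). Its mean lay at the 65.1st percentile of AFFX signals, above the median probe set, and that of 209782_s_at at the 78.5th.

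**Figure D4:**
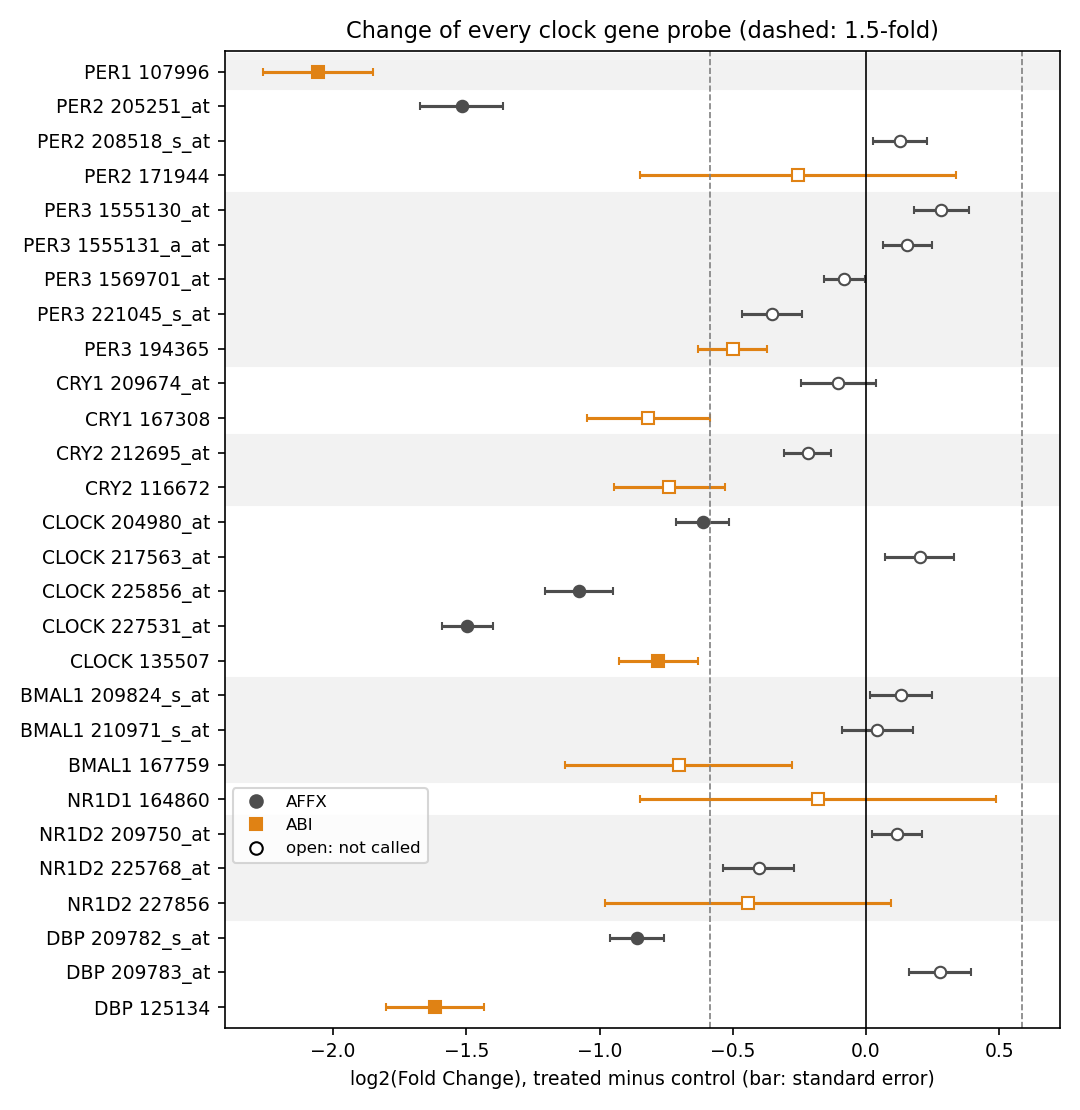
Log2(Fold Change), treated minus control, of each of the 28 clock probes with its limma standard error, AFFX as grey circles and ABI as orange squares, filled where called and open where not, with dashed lines at 1.5-fold. All 8 filled symbols lie left of the lower line, and on AFFX the PER2, CLOCK and DBP probe sets that are not called lie between 0.13 and 0.28 on the deposited scale, and below 0 when arrays were centred on ribosomal protein genes or hybridisation controls.

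To compare the platforms gene by gene, each gene was represented by the single-gene probe whose equal-variance t-test gave the smallest p, the rule of the study's methods. On AFFX 3 of 8 clock genes were lower (37.5%), beside 14.2% of all genes, and 0 higher, beside 2.5% of all. On ABI 3 of 10 were lower (30%), beside 14.8% of all genes, and 0 higher, beside 6.31%. Their median log2(Fold Change) was -0.31 on AFFX, where that of all genes was 0.16, and -0.72 on ABI, where that of all genes was 0.09.

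Of the 8 clock genes measured on both platforms, CLOCK and DBP were called lower on both (10.5% of the 16180 shared genes were). None was called higher on both (0.42% of shared genes were), PER2 was called on AFFX alone, and 5 were called on neither. At an unadjusted p under 0.05 on both platforms, limma put 3 of the 8 lower and 0 higher, where 17% of shared genes were lower and 11.8% higher. Both called DBP probes stayed called in every probe-level alternative except that a fold limit of 2 lost the AFFX one, and CLOCK lost its ABI call as described. When all AFFX probe sets of a gene were averaged the number lower on both was 1, since DBP (-0.29) was then under the fold limit on AFFX while CLOCK (-0.75) was still called. With a fold limit of 2 it was 0.

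The difference between the platforms, tested as a limma interaction over the shared genes, passed an adjusted p of 0.05 for 0 of the 8 clock genes (11.6% of shared genes passed) and an unadjusted p of 0.05 for 4 (26% of shared genes). ABI minus AFFX was 0.72 for CLOCK (SE 0.227, adjusted p 0.0661) and -0.76 for DBP (SE 0.257, adjusted p 0.0839). The CLOCK fall was the larger on AFFX and the DBP fall on ABI, but neither difference passed the threshold. Without array weights both passed (adjusted p 0.0164 for CLOCK and 0.0337 for DBP), as did PER3 (-0.42, adjusted p 0.041), whose AFFX value came from 1569701_at at the 4.3rd percentile of signal. With the brightest probe set of each gene the difference was -0.17 for CLOCK (204980_at, adjusted p 0.724) and -0.15 for PER3 (221045_s_at, adjusted p 0.795), and 0 of the 8 passed.

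For the clock genes called on both platforms, the 3 shared genes with the most similar values over the 12 arrays, each platform centred on its mean, were TRAM2 (Pearson's r 0.994), CEBPG (0.992) and CCNE1 (0.992) for DBP, and ASXL2 (0.996), NOL8 (0.995) and VEZF1 (0.993) for CLOCK. CCNE1 encodes cyclin E, which drives entry into S phase. These values are a description: the 12 points come from 2 RNA pools, so r mostly reflects a similar size of the treated-control difference on each platform. CCNE1 changed by -0.97 on AFFX and -1.63 on ABI.

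Around the core stands a wider set of clock genes, the kinases, ubiquitin ligases and transcription factors that act on the core loop, and the 23 with a single-gene probe on each platform were analysed here. On AFFX 9 of the 23 were called lower (39.1%, beside 14.2% of all genes) and 0 higher (2.5% of all), and on ABI 8 were lower (34.8%, beside 14.8% of all) and 0 higher (6.31% of all). Unadjusted limma p-values under 0.05 put 10 AFFX and 10 ABI genes lower (23.4% of all AFFX and 21.3% of all ABI genes). They put 8 AFFX and 2 ABI genes higher (42% of all AFFX and 18.5% of all ABI genes). The median log2(Fold Change) over these genes was 0.03 on AFFX, where that of all genes was 0.16, and -0.14 on ABI, where it was 0.09. Called lower on both platforms were 7 genes (10.5% of shared genes), higher on both 0 (0.42% of shared genes), 3 were called on 1 platform and 13 on neither. At an unadjusted limma p under 0.05 on both, 9 were lower (17% of shared genes) and 1 higher (11.8%).

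Transcription factors that oppose the activators were among the falls. BHLHE41 (DEC2), a repressor that competes at E-boxes, averaged 3.96 in treated and 6.45 in control cells on AFFX (-2.50, SE 0.149), and its ABI change was -1.79 (SE 0.243, and -1.04 with 1 added before log2), though only 1 of its 4 AFFX probe sets was called. Of its uncalled probe sets, 231242_at rose by 0.58 (limma adjusted p 0.000519), just under the fold limit. The remaining ones changed by -0.20 and -0.05. CIART, a repressor of CLOCK and BMAL1 also known as CHRONO, averaged -1.30 in treated and 2.43 in control cells on ABI (-3.73, SE 0.576), and changed by -1.37 (SE 0.121) on AFFX. The size of its ABI fall depended on the low treated signal, at 13.3-fold as deposited and 4.36-fold (-2.13) with 1 added before log2, and it was -3.11 without treated replicate 2. NFIL3, which competes with DBP at D-boxes, changed by -0.96 (SE 0.0987) on AFFX and -1.61 (SE 0.388) on ABI, where its call (adjusted p 0.0388) was lost when any of 5 arrays was left out (0.0923 to 0.11).

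SIRT1, a deacetylase of BMAL1 and PER2 with many other substrates, averaged 5.25 in treated and 8.41 in control cells on AFFX, 8.93-fold lower (-3.16, SE 0.121), and was 9.07-fold lower on ABI (-3.18, SE 0.321), or 4.67-fold with 1 added before log2. CSNK1D, the casein kinase that phosphorylates PER proteins, changed by -1.54 (SE 0.0832) on AFFX and -0.93 (SE 0.146) on ABI, but of its 3 AFFX probe sets 2 were called lower and 1 higher. FBXW11, an F-box protein that marks phosphorylated PER for degradation, changed by -0.88 on AFFX and -0.64 on ABI, the last lost when any of 5 ABI arrays was left out (adjusted p 0.0607 to 0.0717). TIPIN, the partner of TIMELESS at replication forks, changed by -0.70 on AFFX and -1 on ABI.

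Calls on 1 platform were GSK3B (-1.44 on AFFX and -0.14 on ABI) and BTRC (-0.93 on AFFX and -0.45 on ABI), a kinase and an F-box protein, lower on AFFX, and BHLHE40 (-0.34 on AFFX and -1.44 on ABI), the close relative of BHLHE41, lower on ABI. These are values of the probe that stood for the gene: the other AFFX probe set of BHLHE40, 201170_s_at, averaged 5.10 in treated and 6.98 in control cells and was itself called lower (-1.88, limma adjusted p 9.56e-08), and the ABI change was -0.63 with 1 added before log2. For BTRC the other ABI probe, 121355, changed by -1.95 and was not called (limma adjusted p 0.0563). Its remaining AFFX probe sets ran from -0.81 (204901_at, called lower) to 0.49 (222374_at, not called). The platform difference of BTRC did not pass the threshold (0.47, limma interaction, adjusted p 0.26). The paralogs and partners of the core activators, NPAS2 and BMAL2, the receptors RORA and RORB and the DBP relatives TEF and HLF were called on neither platform.

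**Figure D5:**
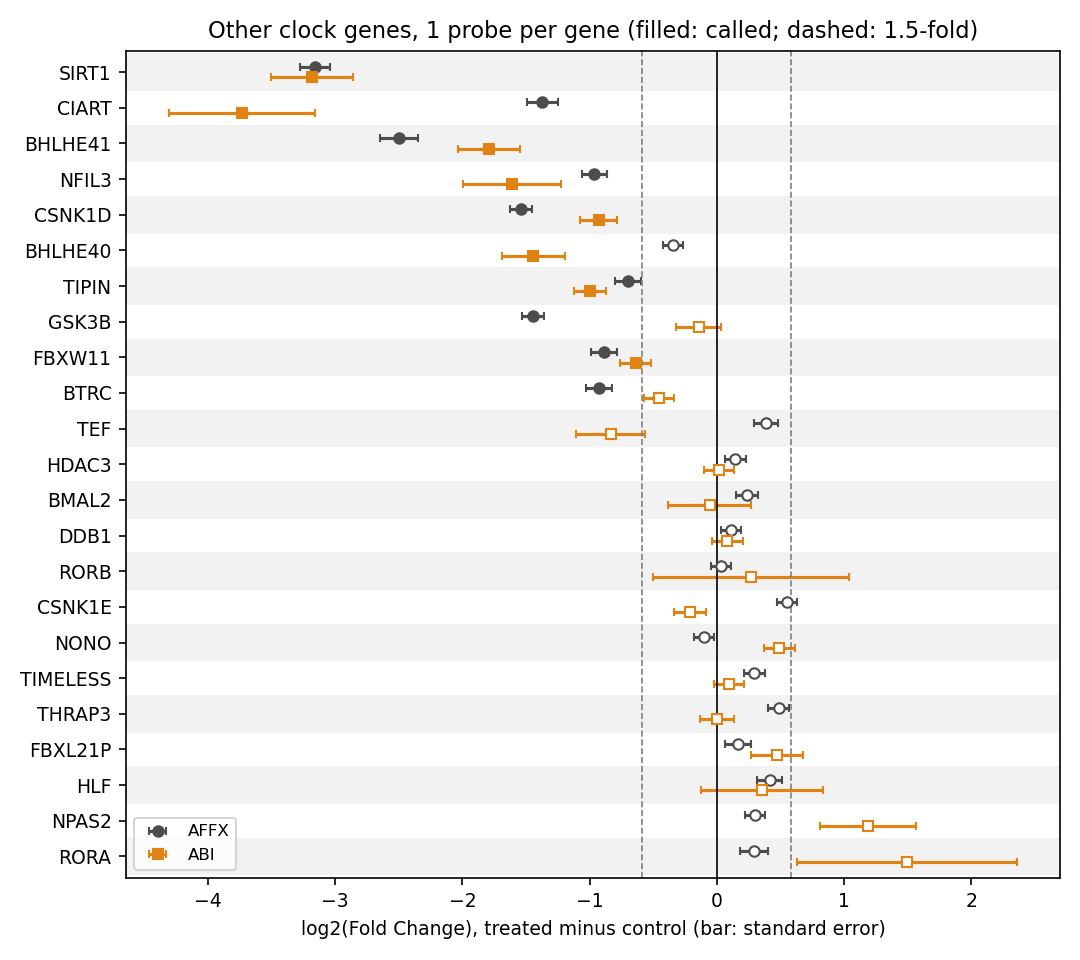
Log2(Fold Change), treated minus control, with limma standard errors for the 23 further clock genes, 1 probe per gene, AFFX as grey circles and ABI as orange squares, filled where called, with dashed lines at 1.5-fold. Genes are ordered by their mean change, from SIRT1 (-3.16 on AFFX and -3.18 on ABI) at the top, and no symbol on the right of the upper dashed line is filled.

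The size of all these changes is relative to each platform's scaling. On the deposited scale 4888 AFFX probe sets were called lower and 958 higher, and 3347 ABI probes lower and 2553 higher. Centring arrays on ribosomal protein genes moved the median of all probes to -0.18 on AFFX (8135 lower and 112 higher) and -0.48 on ABI (8347 lower and 191 higher), and centring AFFX on its hybridisation controls moved it to -0.41 (13717 lower and 58 higher). Quantile normalization gave 4513 lower and 1815 higher on AFFX. Centring on the median of single-gene probes gave 2814 lower and 5294 higher on ABI, where the median change of all probes was then 0.34. Centring moves every probe of an array alike, so the distance of a clock probe from the median of all probes stayed as given. All 8 called clock probes kept a change below 0 under every scaling.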

How the data were processed

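Expression was measured in treated and control A2780 cells on 12 arrays, 3 for each of 4 groups taken from the labels. AFFX values were the authors' log2 signals, made with RMA and quantile normalization. ABI values were intensities that the authors deposited on a linear scale after global median normalization, with no detection calls given, and were turned to log2 here. Software versions of either step are not given in the sources used here. Of the AFFX probe sets, 62 controls were set aside.

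Genes were named from the platform annotation, updated by Entrez Gene ID to RefSeq symbols. Probes naming several genes entered the tests but no count of genes (1801 AFFX probe sets and 563 ABI probes), nor did those naming none (11721 and 11444).

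On each platform a limma fit (version 3.58.1, R 4.3.3) without pairing compared treated with control arrays, and p-values were adjusted by the Benjamini-Hochberg method over all probes. Platform differences were tested as an interaction with array weights by platform. The SAM procedure of the study, which ran on genes filtered over both platforms, was not used here. The same arrays chose the probe of a gene and tested it, so gene-level folds lean to larger values. The number of arrays limits the precision. In simulated data, 100 probes were changed 2-fold and 100 were changed 4-fold on each platform. Of these, limma called 92% and 100% on AFFX, and 10% and 47% on ABI. With so few changed probes the adjusted p is stricter than in the real data, so these shares do not give the share of real changes found.

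All members were named with every probe, as were the wider clock genes called on both platforms, up to 4 more called on 1, and the 3 genes most like each member called on both. The members, gene lists and named-gene rule were chosen with earlier results of these data known. Alternatives were a block for the replicate number, other scalings, filters, probe choices and fold limits, an intensity trend, the methods' t-test, no array weights, and each array left out in turn. Promoter windows are from RefSeq, build GRCh38.p14, and all 10 members matched by symbol.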

Additional observations from a re-analysis of the deposited data

Results flagged for a closer look

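None of the 8 core clock genes measured on both platforms differed between them past the threshold, but 7 of the 23 wider clock genes did (beside 11.6% of all shared genes) in the limma interaction, where the change on ABI minus the change on AFFX was tested over all shared genes. Groups of 3 arrays are too small for a test of outlying arrays.

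For CIART the difference was -2.36 on the log2 scale (adjusted p 0.0155), with a fall called on both platforms, and its ABI change of -3.73 was -2.13 with 1 added to the intensities before log2, against -1.37 on AFFX. For CSNK1D the difference was 0.61 (adjusted p 0.0481), also with a fall called on both, though 1 of its 3 AFFX probe sets was called higher. GSK3B differed by 1.30 (adjusted p 0.00205) and was called lower on AFFX only. Of its 5 AFFX probe sets 2 were called lower, and those not called ran from -0.44 (242336_at) over 0.08 (209945_s_at) to 0.40 (240562_at), beside -0.14 on ABI. BHLHE40 differed by -1.10 (adjusted p 0.00799) with the probe set that stood for it on AFFX (201169_s_at, -0.34), but its other AFFX probe set was called lower (201170_s_at, -1.88). On ABI, leaving out control replicate 2 or 3 lost the BHLHE40 call (adjusted p 0.0607 and 0.0571).

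The other 3 were called on neither platform. CSNK1E, a kinase of the PER proteins, differed by -0.77 (adjusted p 0.0075), with 0.56 on AFFX and -0.21 on ABI. TEF, a relative of DBP, differed by -1.22 (adjusted p 0.0156), with 0.39 on AFFX (210167_s_at) and -0.83 on ABI. The brightest TEF probe set on AFFX, 225840_at, changed by -0.36, in the direction of ABI, and the remaining ones by 0.19 and 0.20. NONO, an RNA-binding partner of PER proteins, differed by 0.59 (adjusted p 0.0263), with -0.10 on AFFX and 0.49 on ABI. The other ABI probe of NONO, 129450, changed by 0.06. For CSNK1E the other AFFX probe set, 222015_at, changed by 0.22, in the direction of the one that stood for the gene. The platform difference with other probes of these genes is not given here.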

How the results depend on the processing

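The number of clock probe sets called lower on AFFX (5) was 3 with a fold limit of 2, and without a fold limit 1 was called higher. It was 10 when arrays were centred on hybridisation controls, where 13717 of all 54613 probe sets were lower (4888 as deposited). The ABI number (3) was 5 without dim probes and 5 with an intensity trend. It was 6 after centring on ribosomal protein genes, where 8347 of all 33096 ABI probes were lower (3347 as deposited). These 2 rises thus came with a shift of all probes. For the other settings in this paragraph no number over all probes or genes is given. Clock genes lower on both platforms (2) numbered 1 under quantile normalization, 1 with the mean of all probes and 0 with a fold limit of 2, and 1 to 2 with each array left out. The wider clock genes lower on both (7) numbered 11 after centring on ribosomal protein genes and 3 with a fold limit of 2, and 4 to 8 with each array left out, the lowest without ABI control replicate 2. Clock genes with a platform difference (0) numbered 3 without array weights and 0 to 1 with each array left out (DBP without AFFX treated replicate 3, CLOCK without AFFX control replicate 3).

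Deviations of same-numbered arrays correlated at 0.0746, 0.004 and 0.327 on AFFX and at 0.0342, -0.0067 and 0.0717 on ABI. On AFFX, arrays of unlike number correlated as strongly, at 0.324 for treated 2 with control 1 and -0.339 for treated 3 with control 1. AFFX arrays thus shared deviations across the groups, but not by replicate number, so the numbers were not taken as pairs. With the replicate number as a block, 1 clock gene and 4 wider clock genes were lower on both platforms, where the ABI calls of CLOCK (adjusted p 0.0862), BHLHE41 (0.0512), FBXW11 (0.085) and NFIL3 (0.0943) were lost.

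Only uncalled probes changed sign. Centring on ribosomal protein genes and on hybridisation controls gave -0.17 and -0.40 for PER2 208518_s_at, -0.013 and -0.24 for PER3 1555130_at, -0.14 and -0.37 for PER3 1555131_a_at, -0.094 and -0.32 for CLOCK 217563_at, -0.16 and -0.39 for BMAL1 209824_s_at, -0.25 and -0.48 for BMAL1 210971_s_at, -0.18 and -0.41 for NR1D2 209750_at, and -0.018 and -0.24 for DBP 209783_at. Quantile normalization gave 0.089 for CRY1 209674_at, -0.047 for BMAL1 210971_s_at and 0.11 for GSK3B on ABI. Centring on the median of single-gene probes gave 0.032 for GSK3B on ABI, and adding 1 before log2 gave 0.012 for NR1D1. With each array left out, CRY1 209674_at ran from -0.23 to 0.022, BMAL1 210971_s_at from -0.10 to 0.20, and on ABI PER2 from -0.70 to 0.23, NR1D1 from -0.64 to 0.59 and NR1D2 from -0.92 to 0.11.

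ABI arrays spread more than AFFX arrays, which limits the ABI values. In simulated data, 47% of the 100 ABI probes changed 4-fold were called, under a stricter adjusted p than in the real data. The cause of the shifts between settings was not tested.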

Other observations

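The AFFX probe sets that the annotation gives to PER1 together with MIR6883, and to NR1D1 together with THRA, cannot be assigned to 1 gene and were left out of the counts above. Of the 4 with PER1, 202861_at averaged 6.79 in treated and 7.97 in control cells and was called lower (log2(Fold Change) -1.18, limma adjusted p 8.09e-06). For 36829_at the change was -0.55 (adjusted p 0.00117), under the fold limit, and for 242832_at and 244677_at it was 0.21 and 0.17. Of the 3 with NR1D1, 204760_s_at changed by -0.40, 31637_s_at by -0.37 and 217476_at by 0.48, all under the fold limit. These were looked up after the results for single-gene probes were known.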
